A study of Mus musculus with 6 samples.

Results

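Expression of the chemokines and chemokine receptors was examined by bulk RNA sequencing of the mouse retinal pigment epithelium (RPE), a pigmented cell layer that lies behind the photoreceptors. Members were all protein-coding rows of the deposited gene table whose symbol starts with Ccl, Cxcl, Ccr or Cxcr followed directly by a digit. The rule uses no measured value, but it was chosen with earlier results of these data known. It gave 59 of 54532 rows. Of these, 33 had enough reads to be tested, among 17340 tested genes, and the other 26 are given by their raw counts. The wild-type (WT) genotype was represented by the strain 129S1/SvlmJ. The second genotype, Abca4-/- (Abca4KO in the library names), carried the allele Abca4tm1Ght and came from the same supplier, Jackson Labs. Both genotypes carried the Leu450 form of Rpe65, lived in 12-h cyclic light on a standard diet, and were sampled 5 h after light onset. Each genotype had 3 mice and 1 library per mouse. Age and sex are not given in the sources used here, and the labels name no sort or marker by which RPE cells were selected. The labels name a separate stock for each genotype, so a difference of strain background and an effect of Abca4 cannot be told apart.

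Chemokines are small secreted proteins that bind to glycosaminoglycans on cell surfaces and matrix and draw leukocytes along their gradients through G protein-coupled receptors. CXC ligands act on CXCR receptors and CC ligands on CCR receptors, and most inflammatory ligands share receptors. Some ligands are made constitutively and direct the homing of resident cells, others only after stimulation by cytokines such as interferon gamma or by NF-kB signalling. In the eye, RPE cells, choroidal cells and microglia can all make chemokines, whereas most of the receptors are carried by leukocytes. In bulk tissue, fewer cells of a type and less RNA per cell cannot be told apart.

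Each library held between 17047286 and 19841307 counts, at which 3 counts corresponded to 0.152 to 0.174 CPM, the unit of expression used here, which scales each count to a common normalised library size. Abca4, the photoreceptor and RPE transporter deleted in the mutant, lay between 932 and 968 CPM in WT and between 32.6 and 39.1 CPM in Abca4KO, so all 6 libraries followed their labels. All 12 RPE markers were tested, and their summed level was 32870 to 41700 CPM in WT, lowest in WT 2, and 37530 to 39970 CPM in Abca4KO. The library WT 2 stood apart. A chi-square of the counts per degree of freedom, which would be near 1 for sampling noise alone, was 49.0 and 62.9 between WT 2 and the other WT libraries and 14.1 between those 2. The comparisons of the tested members described below are therefore given with and without WT 2. A value without it rests on 2 WT libraries. By the same chi-square, Abca4KO 2 was also distant from other libraries. Its values were 50.5 with WT 3, 43.3 with WT 2, 33.4 with WT 1, 30.3 with Abca4KO 1 and 19.7 with Abca4KO 3.

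No member passed the test between genotypes. By edgeR's quasi-likelihood test, 0 of the 33 tested members had an adjusted p under 0.05, beside 8 of all 17340 genes (0.0461%). DESeq2 and limma-voom also called 0 members. DESeq2 gave no adjusted p for some members, among them Cxcl9, Cxcl10, Ccl5, Ccr9, Ccl17, Ccr6, Ccl22 and Cxcr5. It therefore could not call these. At an unadjusted p under 0.05, 1 member was higher in Abca4KO (Cxcr1), beside 3.15% of all genes, and 0 members were lower, beside 3.87%. The count at that level was 5 without WT 1, 7 without WT 2, 6 without WT 3 and 2 without Abca4KO 1. Without WT 1, 35 members were tested, of which Cxcr1 was higher, beside 2.37% of all genes, and 4 were lower, beside 3.41% (Ccl5, Ccl9, Cxcl9 and Cxcl10). Without WT 3, with 35 tested, Cxcr1 was higher, beside 3.28%, and 5 were lower, beside 3.31% (Ccl5, Ccl7, Ccr2, Cxcl9 and Cxcl10). Without Abca4KO 1, again with 35 tested, Cxcr1 and Cxcr4 were higher, beside 3.73%, and 0 were lower, beside 4.08%.

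The 3 Abca4KO libraries lay above the 3 WT libraries for 1 member (Cxcr1), beside 5.93% of all genes, and below them for 3 members (Ccl27a, Ccr9 and Ccl17), beside 6.85%. A log2 fold change, given throughout as Abca4KO minus WT, was negative for 18 of the 33 members, beside 52.2% of all genes. The median over the members was -0.19 on that scale, beside -0.01 over all genes. The shares of members in these counts were close to those of the background.

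The members instead differed most between mice of the same genotype. WT 2 was the highest library for 20 of the 33 members, beside 24.9% of all genes, WT 3 was the lowest for 18, beside 20.2%, and Abca4KO 2 was the highest for 8, beside 17.4%. The summed level of all members was 424 CPM in WT 1, 942 CPM in WT 2 and 306 CPM in WT 3. In Abca4KO it was 390.2 CPM in Abca4KO 1, 577 CPM in Abca4KO 2 and 466 CPM in Abca4KO 3. The WT range thus held the whole Abca4KO range. For 4 members (Cxcl9, Ccl5, Cxcl10 and Ccr2) WT 2 held at least 5 times the level of any other library, which held for 77 of all tested genes (0.444%).

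**Figure D1:**
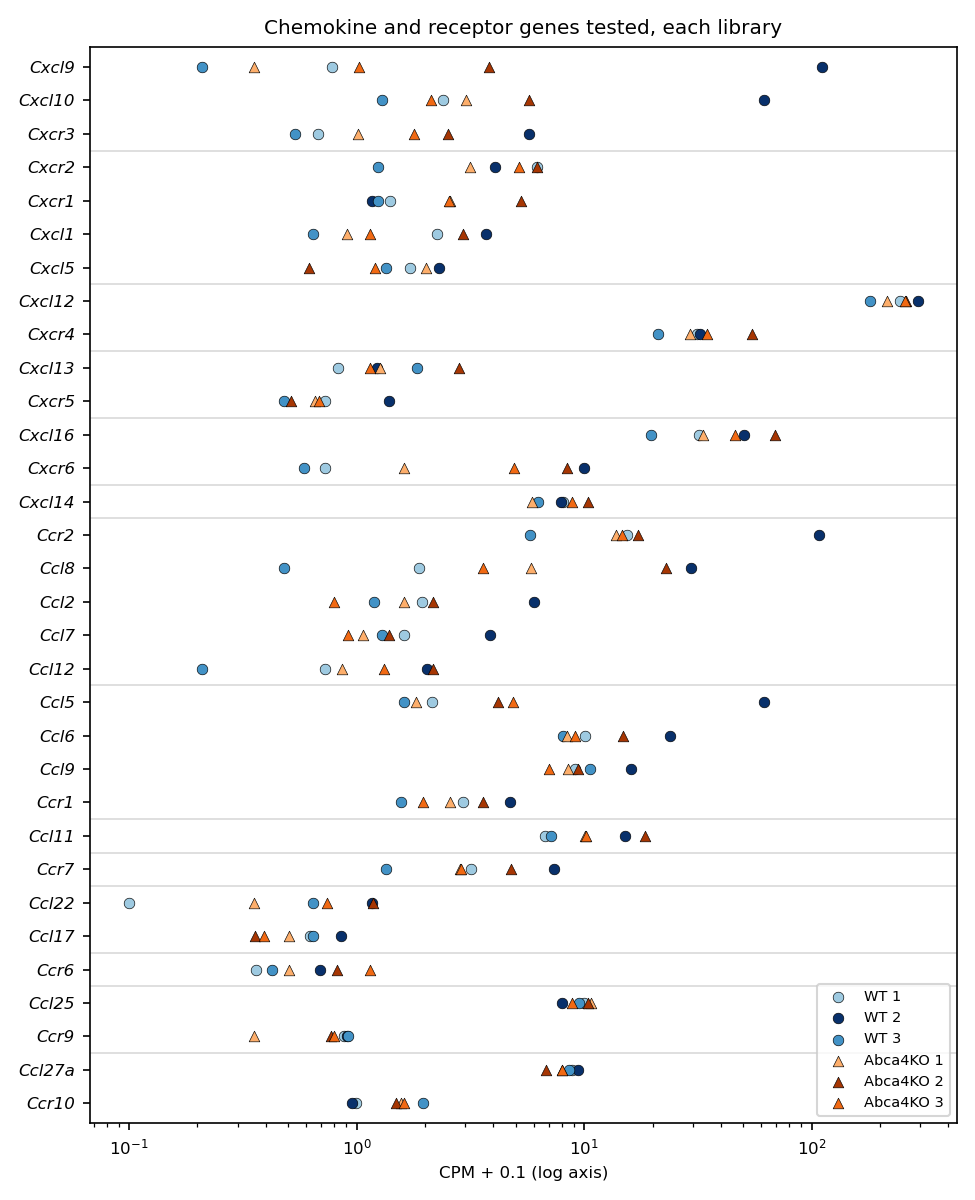
Level of 32 of the tested members in each library, as CPM plus 0.1 on a log axis, with WT libraries as blue circles and Abca4KO libraries as orange triangles and grey lines between groups of ligands and receptors. WT 2, the darkest circle, is the rightmost point for 19 of them, whereas the 3 triangles of Cxcr1 all lie to the right of its circles.

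Without WT 2, 26 of the 33 members had a positive log2 fold change, beside 52.3% of the 17826 genes then tested, and the median was 0.42 in place of -0.19, beside 0.01 over all genes. At an unadjusted p under 0.05, 7 members were higher in Abca4KO, beside 6.11% of all genes, among them Cxcr6, Ccl8, Cxcr1, Ccl11, Cxcl16 and Cxcr3. None was lower, beside 4.58%. No member passed an adjusted p of 0.05 by edgeR's quasi-likelihood test, beside 0.0337% of genes higher and 0.0280% lower. All Abca4KO libraries lay above both remaining WT libraries for 8 members and below them for 3, beside 14.0% of genes in each direction. The sign of the family's median thus followed the inclusion of 1 WT mouse. WT 2 was the highest library for 20 of the 33 members, so leaving it out raised their log2 fold changes in advance of any test. Without WT 3, the lowest library for 18, the median was -0.53, with 12 of 35 tested members positive. No genotype difference is read from these counts. Without both WT 2 and Abca4KO 2, a setting chosen after seeing the data, the median was 0.16. Of the 31 members then tested, 4 were higher at that level, beside 3.99% of all genes (Ccl8, Ccl11, Cxcl16 and Cxcr6), and 0 were lower, beside 4.25%.

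**Figure D2:**
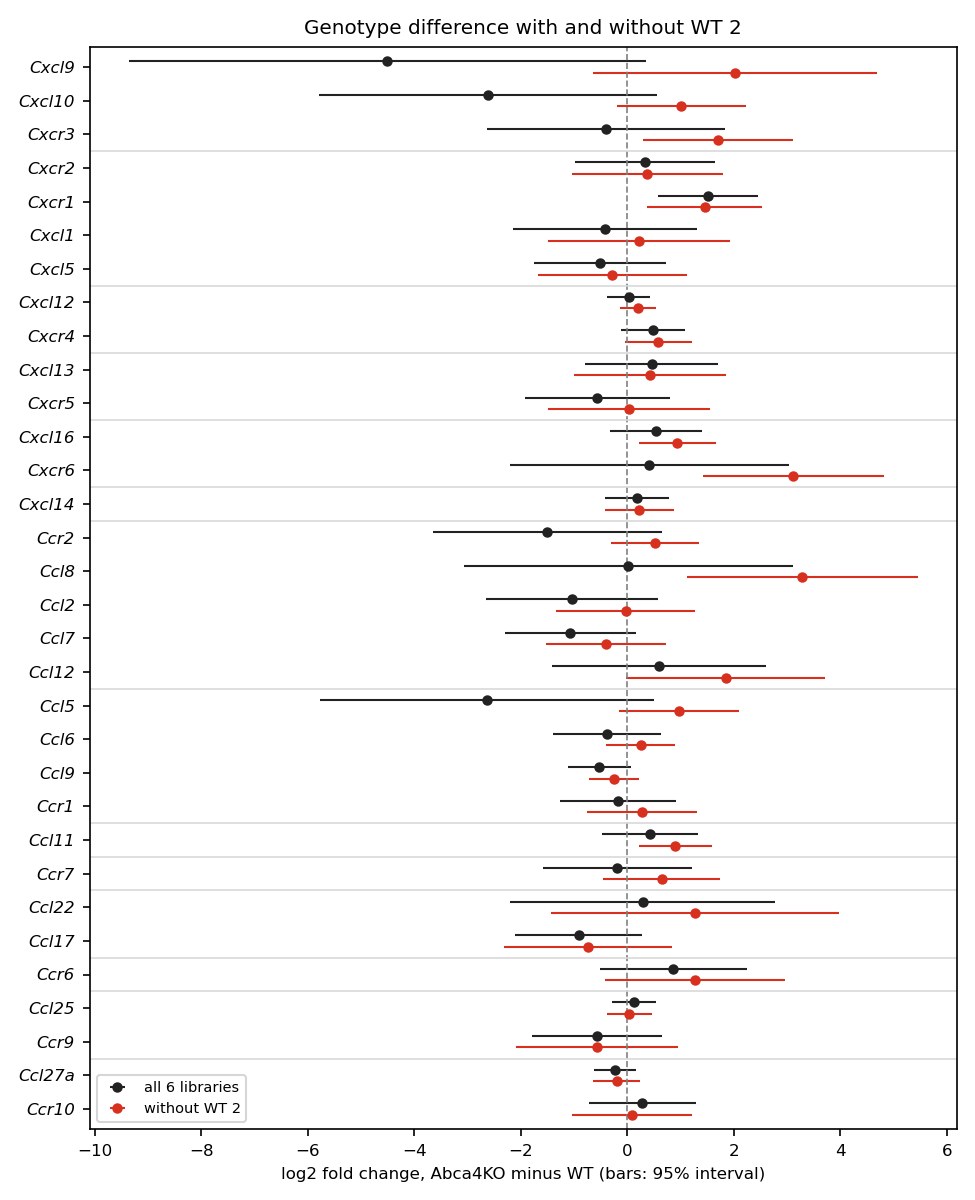
Log2 fold change (Abca4KO minus WT) of 32 tested members with its 95% interval, from all 6 libraries in black and without WT 2 in red. The red points of Cxcl9, Cxcl10, Ccl5 and Ccr2 lie on the other side of 0 from the black ones, whereas Cxcr1 keeps a value of 1.51 with and 1.45 without WT 2.

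Cxcl9 and Cxcl10, ligands of CXCR3, were far higher in WT 2 than in the other libraries, and Cxcl9 had the highest such ratio of the tested members. Cxcl9, an interferon-gamma-inducible ligand that draws activated T and NK cells, was at 0.681 CPM in WT 1, 111 CPM in WT 2 and 0.109 CPM in WT 3, and at 0.254, 3.72 and 0.930 CPM in Abca4KO 1, 2 and 3. WT 2 was 164 times the median of the other 5 libraries, and the Abca4KO values lay inside the WT range. The log2 fold change was -4.50 (SE 2.07; adjusted p = 0.718 by edgeR's quasi-likelihood test), and 2.02 (SE 1.16, adjusted p = 0.575) without WT 2.

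Cxcl10, the second CXCR3 ligand, was at 2.30, 61.7 and 1.20 CPM in WT 1, 2 and 3 and at 2.94, 5.62 and 2.03 CPM in Abca4KO 1, 2 and 3. WT 2 was 26.8 times the median of the others, and Abca4KO 2 was the next highest. On the log2 scale the difference was -2.61 (SE 1.36, adjusted p = 0.761), and 1.01 (SE 0.53, adjusted p = 0.538) without WT 2, by the same test. Cxcl10 shares 133 exon bases with Art3 on the opposite strand, and the counting is not stated to use strand. Art3 was lowest in WT 2, at 20.2 CPM, and between 26.1 and 37.8 CPM elsewhere.

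Cxcr3, the receptor of both ligands, was at 0.576, 5.64 and 0.436 CPM in WT 1, 2 and 3 and at 0.913, 2.43 and 1.69 CPM in Abca4KO 1, 2 and 3. WT 2 was again the highest, and the genotypes overlapped. Without WT 2 all 3 Abca4KO libraries lay above both WT libraries, with a log2 fold change of 1.71, with SE 0.61 (adjusted p = 0.378 by edgeR's quasi-likelihood test) against -0.40 (SE 0.95, adjusted p = 0.960) with it. Cxcl11, the third known ligand, is annotated in the deposited table as a polymorphic pseudogene and so is no member. It did not share the pattern, at 9.32, 16.2 and 13.0 CPM in WT and 12.8, 18.9 and 17.4 CPM in Abca4KO. It shares 1582 exon bases with the gene model Gm2673 on the opposite strand.

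The start sites of Cxcl9 and Cxcl10 are shown because these neighbouring genes were both far higher in WT 2 than in the other libraries, with Cxcl12 beside them as the most abundant member per length. The 250 bases before each start site are from RefSeq on build GRCm38.p6, which has the coordinates of mm10, written 5′ to 3′ on the gene's strand. Capitals mark matches, searched on both strands, to the core of the interferon-stimulated response element (GAAA, any 2 bases, GAAA) and to NF-kB forms of 9 letters (GGGANTTCC) and of 10 letters (GGGA, any 2 bases, TTCC). The interferon gamma-activated site TTCNNNGAA was also searched. The motifs were chosen with these sequences in view.
Cxcl9, minus strand, chr5:92328080-92328329: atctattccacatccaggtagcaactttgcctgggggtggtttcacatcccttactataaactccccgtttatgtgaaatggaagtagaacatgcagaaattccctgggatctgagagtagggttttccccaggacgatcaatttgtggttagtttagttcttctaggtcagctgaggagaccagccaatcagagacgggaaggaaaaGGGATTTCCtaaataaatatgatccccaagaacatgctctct
Cxcl10, minus strand, chr5:92348890-92349139: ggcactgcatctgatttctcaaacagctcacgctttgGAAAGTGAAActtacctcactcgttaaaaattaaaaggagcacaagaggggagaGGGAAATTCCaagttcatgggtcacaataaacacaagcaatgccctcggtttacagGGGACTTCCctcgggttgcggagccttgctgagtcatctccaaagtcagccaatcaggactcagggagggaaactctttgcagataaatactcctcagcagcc
Cxcl12, plus strand, chr6:117168285-117168534: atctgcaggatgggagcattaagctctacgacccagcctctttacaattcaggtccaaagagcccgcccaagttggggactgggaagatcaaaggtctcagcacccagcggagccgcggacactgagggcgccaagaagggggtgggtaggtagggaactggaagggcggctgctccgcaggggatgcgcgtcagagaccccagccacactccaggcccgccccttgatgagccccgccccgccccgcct
In Cxcl9 the match GGGATTTCC begins at position -42 from the start site. In Cxcl10, GAAAGTGAAA begins at -213, GGGAAATTCC at -159 and GGGACTTCC at -103. The printed bases of Cxcl12 hold none of these letters. Over the 300-base windows of all 32851 RefSeq promoter entries, the response element core was in 3.44%, the activated site in 8.30%, the 9-letter NF-kB form in 1.68% and the 10-letter form in 1.47%. Of the 33 tested members, 23 had an entry. The core was found in Cxcl10 and Cxcl14, the activated site in Ccl17, Ccr6 and Cxcl14, the 9-letter form in Ccl25, Ccr6, Cxcl9 and Cxcl10, and the 10-letter form in Cxcl1 and Cxcl10. A match is a description of the letters and not a bound site.

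A list of 34 genes of interferon signalling and response stood beside these ligands. Of its 31 tested genes, 30 were highest in WT 2 and 10 were there at least 5 times the next library. None passed an adjusted p of 0.05, and 1 was at an unadjusted p under 0.05 (Gbp3, lower), beside 3.87% of all genes. The median log2 fold change was -1.06, and 0.33 without WT 2. Their summed level was 779, 5604 and 720.4 CPM in WT 1, 2 and 3 and 798, 1134 and 885 CPM in Abca4KO 1, 2 and 3. Gbp3, an interferon-induced GTPase, was at 1037 CPM in WT 2 and between 38.7 and 51.6 CPM in the others. Ifng itself was not tested, at 3.44 CPM in WT 2 and at most 0.209 CPM elsewhere.

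Markers of T and NK cells, which carry CXCR3, followed the same libraries. All 16 were tested and 15 were highest in WT 2, 8 of them at least 5 times the next library. Their summed level was 15.3 to 228 CPM in WT, the highest in WT 2, and 24.2 to 52.5 CPM in Abca4KO. Gzmb and Gzma, granule proteases of cytotoxic lymphocytes, were at an unadjusted p under 0.05, both lower in Abca4KO, beside 3.87% of all genes. The median log2 fold change over the 16 was -1.55. Without WT 2 it was 0.72, with 14 of the 16 positive. Cd8a was at 23.7 CPM in WT 2 and between 0.871 and 3.20 CPM elsewhere. Markers of dendritic cells summed to 102 to 1159 CPM in WT and 208 to 499.6 CPM in Abca4KO, with WT 2 the highest. H2-Ab1 alone gave 970 CPM of that sum in WT 2. Of the 7 tested, 5 were highest in WT 2. Itgax was highest in Abca4KO 2, at 186 CPM beside 139 CPM in WT 2, and Zbtb46 in Abca4KO 3, at 15.5 beside 12.4 CPM. Other leukocyte lists did not follow WT 2. Mast cell markers summed to 24.7 CPM in WT 2, the lowest library, and to 39.3 to 108 CPM elsewhere. B and plasma cell markers were highest in Abca4KO 2, at 629.5 CPM, beside 115.9 CPM in WT 2. The part of these cells in the chemokine levels was not tested.

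**Figure D3:**
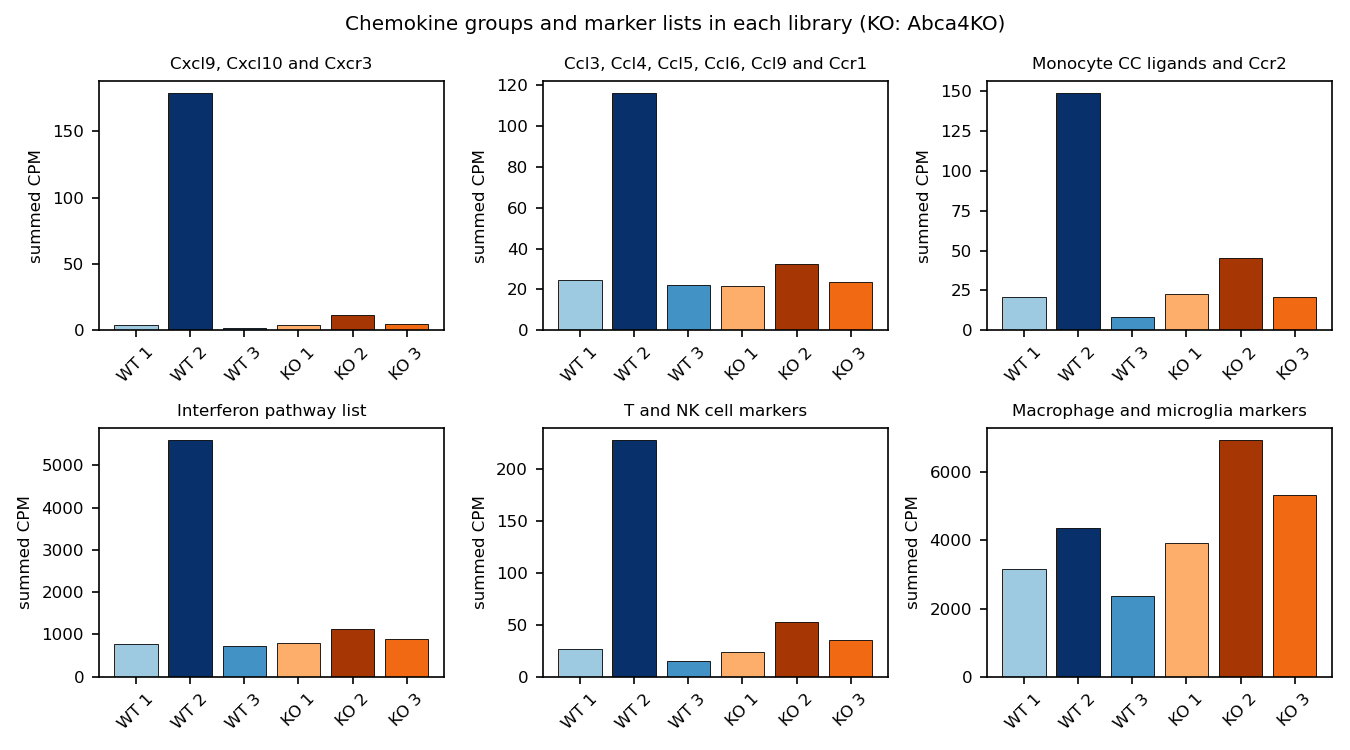
Summed CPM in each library, on a linear axis from 0, of 3 groups of members in the upper row and of the interferon, T and NK cell, and macrophage and microglia lists in the lower row. WT 2 is the tallest bar in 5 panels, and Abca4KO 2 is the tallest for the macrophage and microglia markers, at 6955 CPM. Of that bar, Lyz2 gave 3937 CPM and Ctss 1349 CPM.

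Ccl5, Ccl6, Ccl9 and Ccr1, ligands and a receptor through which macrophages and T cells are attracted, were also each highest in WT 2. Ccl5, a ligand made by activated T and NK cells, was at 2.04, 61.9 and 1.52 CPM in WT 1, 2 and 3 and at 1.73, 4.08 and 4.77 CPM in Abca4KO 1, 2 and 3. WT 2 was 30.3 times the median of the others, and the other 5 libraries lay below 5 CPM. Abca4KO minus WT was -2.63 on the log2 scale (SE 1.34, adjusted p = 0.759 by edgeR's quasi-likelihood test), and 0.98 (SE 0.49, adjusted p = 0.523) without WT 2.

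Ccr1, the receptor shared by several of these ligands, was at 2.83, 4.62 and 1.47 CPM in WT and 2.49, 3.51 and 1.86 CPM in Abca4KO, and the difference was -0.18 on the log2 scale (SE 0.47, adjusted p = 0.964), and 0.28 (SE 0.45) without WT 2.

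The myeloid ligands Ccl6 and Ccl9 varied less. Ccl6 was at 10.1, 23.9 and 7.95 CPM in WT and 8.32, 14.8 and 9.07 CPM in Abca4KO, with a log2 fold change of -0.38, with SE 0.43 (adjusted p = 0.897), and 0.25 (SE 0.28) without WT 2. Ccl9 was at 9.01, 16.0 and 10.5 CPM in WT and 8.42, 9.29 and 6.92 CPM in Abca4KO, with a log2 fold change of -0.53, with SE 0.25 (adjusted p = 0.733), and -0.25 without WT 2. For Ccl9, unlike most of the group, the negative sign did not depend on WT 2. Ccl3 and Ccl4, ligands of macrophages and activated lymphocytes, were not tested, because too few libraries held enough of their counts. Ccl4 had 4, 125 and 5 counts in WT and 7, 6 and 3 in Abca4KO, and Ccl3 had 8, 54 and 6 in WT and 6, 8 and 15 in Abca4KO, so WT 2 was the highest for both.

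Ccr2, the receptor by which blood monocytes enter tissue, was at 15.4, 108 and 5.72 CPM in WT 1, 2 and 3 and at 13.7, 17.2 and 14.5 CPM in Abca4KO 1, 2 and 3. WT had a mean of 42.9 ± 56.2 CPM and Abca4KO one of 15.1 ± 1.85 CPM (SD, n = 3 in both), so the Abca4KO libraries were close to each other and the WT libraries were not. The resulting log2 fold change was -1.50 (SE 0.92, adjusted p = 0.799 by edgeR's quasi-likelihood test), and 0.52 (SE 0.36, adjusted p = 0.656) without WT 2.

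Of its ligands, Ccl2, the best-known monocyte attractant, was at 1.83, 5.91 and 1.09 CPM in WT and 1.52, 2.06 and 0.697 CPM in Abca4KO. Its log2 fold change was -1.04 (SE 0.69, adjusted p = 0.811), and -0.03 (95% interval -1.33 to 1.27) without WT 2. Ccl7, a close relative, was at 1.52, 3.76 and 1.20 CPM in WT and 0.964, 1.29 and 0.814 CPM in Abca4KO, with a log2 fold change of -1.07, with SE 0.52 (adjusted p = 0.738), and -0.41 (SE 0.49) without WT 2. WT 2 was the highest library for both, and Abca4KO 3 the lowest. Ccl12, a mouse ligand of the same receptor, was at 0.628, 1.93 and 0.109 CPM in WT and 0.761, 2.06 and 1.22 CPM in Abca4KO, with a log2 fold change of 0.60, with SE 0.86 (adjusted p = 0.923), and 1.84 (SE 0.81, adjusted p = 0.477) without WT 2.

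Ccl8, a macrophage-derived ligand, had its own pattern. It was at 1.78, 29.4 and 0.381 CPM in WT 1, 2 and 3 and at 5.73, 22.8 and 3.49 CPM in Abca4KO 1, 2 and 3. WT 2 and Abca4KO 2 were both far above the rest, and all Abca4KO libraries lay above WT 1 and WT 3. With all 6 libraries the log2 fold change was 0.02 (SE 1.32, adjusted p = 0.998 by edgeR's quasi-likelihood test), and 3.29 (95% interval 1.13 to 5.45, adjusted p = 0.303) without WT 2.

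Macrophage and microglia markers stood beside these values. All 19 were tested and 0 passed an adjusted p of 0.05. At an unadjusted p under 0.05 there were 4, among them Cd68, Ctss and Lyz2. All 4 were higher in Abca4KO, beside 3.15% of all genes. The log2 fold change was positive for 13 and negative for 6. All Abca4KO libraries lay above all WT libraries for 4 markers, beside 5.93% of all genes. They lay below them for 2, Csf1r and P2ry12, beside 6.85%. Those 2 had log2 fold changes of -0.12 and -0.63 (adjusted p of 0.786 and 0.767 by edgeR's quasi-likelihood test). The summed level of the 19 was 2368 to 4352 CPM in WT and 3928 to 6955 CPM in Abca4KO, with WT 3 the lowest and Abca4KO 2 the highest. Lyz2 and Ctss gave 3937 and 1349 CPM of the sum in Abca4KO 2. Of the 19 markers, 8 were highest in WT 2. Ctss, a lysosomal protease of these cells, was at 313, 585 and 214 CPM in WT and 645, 1349 and 983 CPM in Abca4KO, so the genotypes did not overlap (log2 fold change 1.42, adjusted p = 0.616, and 1.91 without WT 2). The median over the 19 was 0.24, and 0.73 without WT 2. Their part in the Ccl8 values was not tested.

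Cxcl16, a transmembrane chemokine and scavenger receptor of macrophages and dendritic cells, was at 31.9, 50.3 and 19.5 CPM in WT 1, 2 and 3 and at 33.1, 68.8 and 46.1 CPM in Abca4KO 1, 2 and 3. WT 2 lay above 2 of the Abca4KO libraries, and the other WT libraries lay below all 3. Its log2 fold change was 0.54 (SE 0.37, adjusted p = 0.815 by edgeR's quasi-likelihood test), and 0.94 (95% interval 0.22 to 1.66, adjusted p = 0.351) without WT 2. Cxcl16 shares 552 exon bases with Zmynd15 on the opposite strand, which was at 4.52 to 11.1 CPM in WT and 7.36 to 15.1 CPM in Abca4KO. Reads of those bases cannot be assigned without strand.

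Cxcr6, its receptor on T and NK cells, was at 0.628, 9.93 and 0.490 CPM in WT 1, 2 and 3 and at 1.52, 8.36 and 4.82 CPM in Abca4KO 1, 2 and 3. The level of WT 2 exceeded those of all Abca4KO libraries, and those of WT 1 and WT 3 were below them. For Cxcr6 the log2 fold change was 0.41 (SE 1.12, adjusted p = 0.965), and 3.12 (95% interval 1.42 to 4.81, adjusted p = 0.257) without WT 2, by edgeR's quasi-likelihood test. Among the members, Cxcr6 had the smallest p without WT 2. The gene lies inside Fyco1 on the opposite strand with no shared exon base, and Fyco1 was between 137 and 247 CPM.

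Ccl11, an eotaxin that attracts eosinophils through CCR3, was at 6.65, 15.0 and 7.08 CPM in WT and 9.996, 18.4 and 10.1 CPM in Abca4KO. Abca4KO 2 was the highest and WT 2 the next, and WT 1 and WT 3 lay below all Abca4KO libraries, as they did for Cxcl16. For Ccl11 the log2 fold change was 0.42 (SE 0.39, adjusted p = 0.866 by edgeR's quasi-likelihood test), and 0.90 (95% interval 0.21 to 1.60, adjusted p = 0.348) without WT 2. Ccr3 was too low to be tested, with 2, 17 and 4 counts in WT and 10, 16 and 3 in Abca4KO. The other eotaxins were at 30 counts in all (Ccl24) and at 0 counts (Ccl26).

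Cxcl12, a constitutive ligand that retains leukocytes and progenitors in tissue and guides vessels, was at 246, 292 and 180.4 CPM in WT 1, 2 and 3 and at 216, 259 and 259 CPM in Abca4KO 1, 2 and 3. The WT range enclosed all Abca4KO values. The log2 fold change was 0.03 (95% interval -0.38 to 0.44, adjusted p = 0.985 by edgeR's quasi-likelihood test), and 0.20 (95% interval -0.14 to 0.53) without WT 2. The intervals therefore exclude a 2-fold difference in either direction.

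Cxcr4, the signalling receptor of Cxcl12, was at 31.4, 32.2 and 21.1 CPM in WT and 29.2, 54.4 and 34.6 CPM in Abca4KO. Abca4KO 2 was the highest and WT 3 the lowest, and Abca4KO 1 lay between WT values. The log2 fold change was 0.48 (SE 0.26, adjusted p = 0.763), and 0.59 (SE 0.28, adjusted p = 0.4998) without WT 2. Ackr3, the scavenging receptor of Cxcl12 and no member by its symbol, was at 61.6, 48.5 and 71.5 CPM in WT and 65.4, 64.9 and 58.3 CPM in Abca4KO, with a log2 fold change of 0.05, with SE 0.14 (adjusted p = 0.964), and -0.08 without WT 2. Cxcl14, a constitutive epithelial chemokine, was at 7.96, 7.84 and 6.15 CPM in WT and 5.78, 10.3 and 8.72 CPM in Abca4KO, with a log2 fold change of 0.18, with SE 0.26 (adjusted p = 0.923), and 0.23 without WT 2.

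Cxcr1, a receptor for neutrophil-attracting CXC ligands, was the member with the smallest p with all 6 libraries. It was at 1.31, 1.07 and 1.14 CPM in WT 1, 2 and 3 and at 2.49, 5.16 and 2.44 CPM in Abca4KO 1, 2 and 3. All Abca4KO libraries lay above all WT libraries, the WT mean being 1.18 ± 0.121 CPM and the Abca4KO mean 3.36 ± 1.56 CPM (SD, n = 3 each). The log2 fold change was 1.51 (SE 0.40, 95% interval 0.57 to 2.45) and did not pass the adjustment over all genes (adjusted p = 0.589 by edgeR's quasi-likelihood test). Across the settings tried the adjusted p lay between 0.177 and 0.981 and the log2 fold change between 1.00 and 1.70. WT 2 was here the lowest library, as for 3 of the 33 members (19.9% of all genes).

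Cxcr2, the main receptor of mouse neutrophils and the neighbour of Cxcr1 on chromosome 1, did not share that order. It was at 6.13, 3.97 and 1.14 CPM in WT and 3.04, 6.09 and 5.06 CPM in Abca4KO, with a log2 fold change of 0.33, with SE 0.57 (adjusted p = 0.934), and 0.38 without WT 2. The genotypes overlapped, with WT 1 the highest and WT 3 the lowest. Its ligand Cxcl1 was at 2.15, 3.60 and 0.544 CPM in WT and 0.812, 2.84 and 1.05 CPM in Abca4KO (log2 fold change -0.42, SE 0.74), and Cxcl5 was at 1.62, 2.20 and 1.25 CPM in WT and 1.93, 0.516 and 1.10 CPM in Abca4KO (log2 fold change -0.51, SE 0.53). Both overlapped between genotypes, and without WT 2 the log2 fold changes were 0.22 for Cxcl1 and -0.28 for Cxcl5. Cxcl2, Cxcl3 and Cxcl15 were too low to be tested. Cxcl2 had 25 counts in all, 16 of them in WT 2 and 7 in Abca4KO 3, and it is 90.7% identical to Cxcl3 over 550 bases, so its reads are uncertain.

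Of 9 neutrophil markers, 5 were tested and 0 were at an unadjusted p under 0.05. Their summed level was 17.9 to 73.4 CPM in WT and 48.3 to 110.3 CPM in Abca4KO, with WT 3 the lowest and Abca4KO 2 the highest. S100a9, an abundant neutrophil protein, was at 12.5, 3.81 and 0.762 CPM in WT and 11.3, 27.8 and 9.94 CPM in Abca4KO. Mpo, Elane and Ly6g were among the 4 that were too low to be tested. Their part in the Cxcr1 difference was not tested.

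Receptors and ligands of lymphoid homing were low in every library. Ccr7, which leads dendritic and T cells to lymph nodes, was at 3.09, 7.30 and 1.25 CPM in WT and 2.74, 4.70 and 2.79 CPM in Abca4KO, with a log2 fold change of -0.19, with SE 0.60 (adjusted p = 0.973), and 0.65 without WT 2. Its ligands Ccl19 and Ccl21 had at most 2 counts in all at any of their rows. Cxcl13, the B cell attractant, was at 0.733, 1.13 and 1.74 CPM in WT and 1.17, 2.74 and 1.05 CPM in Abca4KO, and its receptor Cxcr5 was at 0.628, 1.29 and 0.381 CPM in WT and 0.558, 0.413 and 0.581 CPM in Abca4KO. Neither separated the genotypes, with adjusted p of 0.897 and 0.883 by edgeR's quasi-likelihood test. The log2 fold change of Cxcl13 was 0.46, and 0.42 without WT 2, and that of Cxcr5 was -0.56, and 0.03 without WT 2. Cxcr5 shares 110 exon bases with Bcl9l on the opposite strand, which was between 50.2 and 66.8 CPM, so its reads are uncertain.

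Ccl17, a dendritic-cell ligand of CCR4, was at 0.524, 0.752 and 0.544 CPM in WT and 0.406, 0.258 and 0.291 CPM in Abca4KO. Each Abca4KO value was below the lowest WT value, with a log2 fold change of -0.91, with SE 0.51 (adjusted p = 0.768 by edgeR's quasi-likelihood test), and -0.73 without WT 2. These levels were at most 14 counts in a library. Ccl22, the second ligand of CCR4, was at 0, 1.07 and 0.544 CPM in WT and 0.254, 1.08 and 0.639 CPM in Abca4KO, with a log2 fold change of 0.29, with SE 1.06 (adjusted p = 0.976), or 1.27 (SE 1.18) without WT 2, and Ccr4 had 5 counts in all. Ccr6, a receptor of memory lymphocytes and dendritic cells, was at 0.262, 0.591 and 0.327 CPM in WT and 0.406, 0.722 and 1.05 CPM in Abca4KO (log2 fold change 0.87, SE 0.59, adjusted p = 0.812, and 1.28 without WT 2), and its ligand Ccl20 had 1 count in all.

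Ccl25, known as the thymus and gut ligand of CCR9, was steady across libraries, at 9.90, 7.89 and 9.36 CPM in WT and 10.6, 10.3 and 8.72 CPM in Abca4KO. Its log2 fold change was 0.13 (95% interval -0.28 to 0.54, adjusted p = 0.919), and 0.04 without WT 2. It shares 204 exon bases with Elavl1 on the opposite strand, which was between 51.8 and 63.8 CPM. Ccr9 was at 0.785, 0.805 and 0.817 CPM in WT and 0.254, 0.671 and 0.697 CPM in Abca4KO, each Abca4KO value below the lowest WT value, with a log2 fold change of -0.57, with SE 0.52 (adjusted p = 0.866), and -0.57 without WT 2. Ccr9 is uncertain, because it shares 22 exon bases with Slc6a20a on the opposite strand, an RPE gene at 934 to 1190 CPM, and 269 with the gene model Gm17200 on its own strand. It also shares 1932 exon bases with the gene model AC165425.1 on the opposite strand, which had 0 counts.

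Ccl27a, an epithelial ligand of CCR10, was at 8.74, 9.29 and 8.49 CPM in WT and 7.87, 6.71 and 7.90 CPM in Abca4KO. Here too each Abca4KO value was below the lowest WT value. The difference was -0.24 on the log2 scale (95% interval -0.63 to 0.16, adjusted p = 0.822 by edgeR's quasi-likelihood test), and -0.20 without WT 2, so the separated ranges came with a small difference. Ccl27a is 99.3% identical to Ccl27b over 425 bases and shares 8 exon bases with Il11ra1 on the opposite strand. Ccr10 was at 0.890, 0.859 and 1.85 CPM in WT and 1.47, 1.39 and 1.51 CPM in Abca4KO (log2 fold change 0.28, SE 0.43, adjusted p = 0.929, and 0.09 without WT 2).

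Of the 26 members that were not tested, 9 had 0 counts in all 6 libraries, which allows up to 3 counts, or 0.152 to 0.174 CPM, in each. These limits cover counting error only, since the reads carry no molecular identifiers. The 9 rows were Ccl1, Ccl26, and rows of Ccl19, Ccl21a, Ccl21b, Ccl21c and Ccl27a, of which several lie on scaffolds outside the chromosomes; 7 of the 59 members were on such scaffolds. Ccl28, a mucosal ligand of CCR10 and CCR3, had 16, 1 and 2 counts in WT and 9, 9 and 1 in Abca4KO. Cxcl17, a mucosal chemokine, had 17 counts in all, and Ccr8 had 6 counts, all of them in WT 1. The copies of Ccl21 and Ccl19 are nearly identical to each other or to gene models, 99.5% between Ccl21a and Ccl21b over 402 bases, so their counts are uncertain.

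Levels of different genes were compared as CPM per kilobase of the exon length given in the deposited table, as a mean over 6 libraries. Cxcl12 was the highest, at 29.6 CPM per kilobase, between 22.1 and 35.8 over the libraries. Ccl8 followed at 20.7, but between 0.746 and 57.6, then Cxcr4 at 18.7, Cxcl16 at 13.8, Ccl5 at 13.2 and Ccl11 at 10.4. Cxcl9 at 6.47 ranged from 0.0361 to 36.9 CPM per kilobase. The ranges of all neighbours in this order overlapped, except those of Ccr10 above Ccl22 and of Cxcr5 above Ccr9, so for most neighbours the order did not exceed the spread between mice. In WT 2 the highest per length were Ccl5 at 64.5 and Ccl8 at 57.6, and in the other 5 libraries Ccl5 lay between 1.59 and 4.96.

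**Figure D4:**
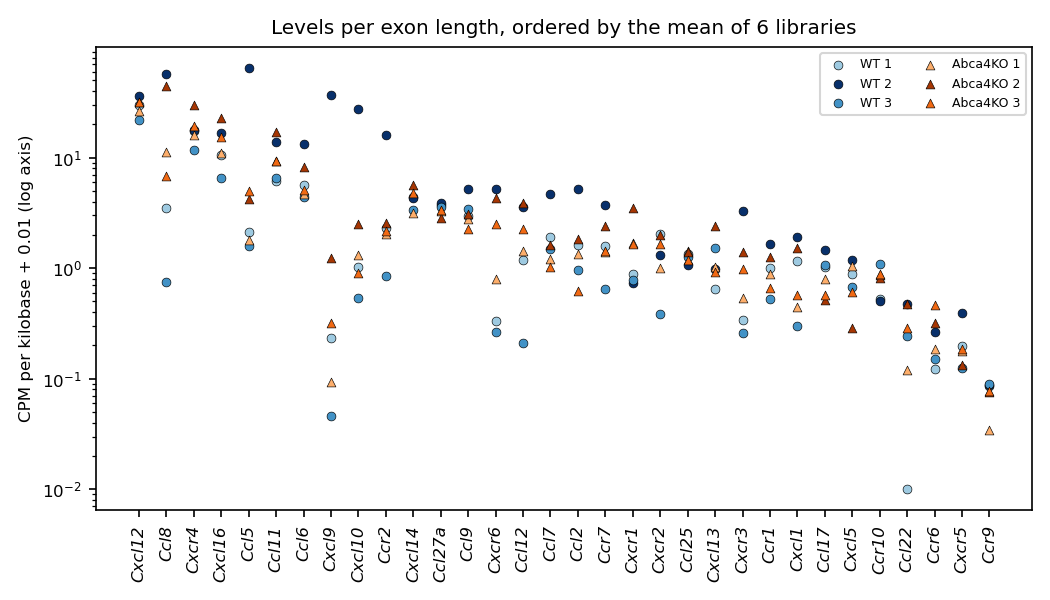
CPM per kilobase of exon length plus 0.01 on a log axis for 32 tested members, ordered by the mean of 6 libraries, with WT as circles and Abca4KO as triangles. Cxcl12 keeps within 22.1 to 35.8 CPM per kilobase, whereas Cxcl9 spreads from 0.0361 to 36.9.

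Many chemokine genes lie in clusters, and the WT 2 level was set beside position (mm10). Cxcl9 and Cxcl10, both on chr5:92321347-92348889, were 164 and 26.8 times the median of the other libraries. In the cluster on chr11:83525778-83664683, Ccl5 was 30.3 times that median and its neighbours Ccl6 and Ccl9 were 2.64 and 1.77 times. In the neighbouring cluster on chr11:82035571-82305690 the ratio ran from 1.504 (Ccl11) to 8.44 (Ccl8). The receptor cluster on chromosome 9 held Ccr2 at 7.41, Cxcr6 at 6.53, Ccr1 at 1.86 and Ccr9 at 1.16. On chr1:74153989-74194631, Cxcr1 and Cxcr2 were below the median of the others, at 0.440 and 0.786. Neighbours in 1 cluster thus differed widely in their ratio.

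**Figure D5:**
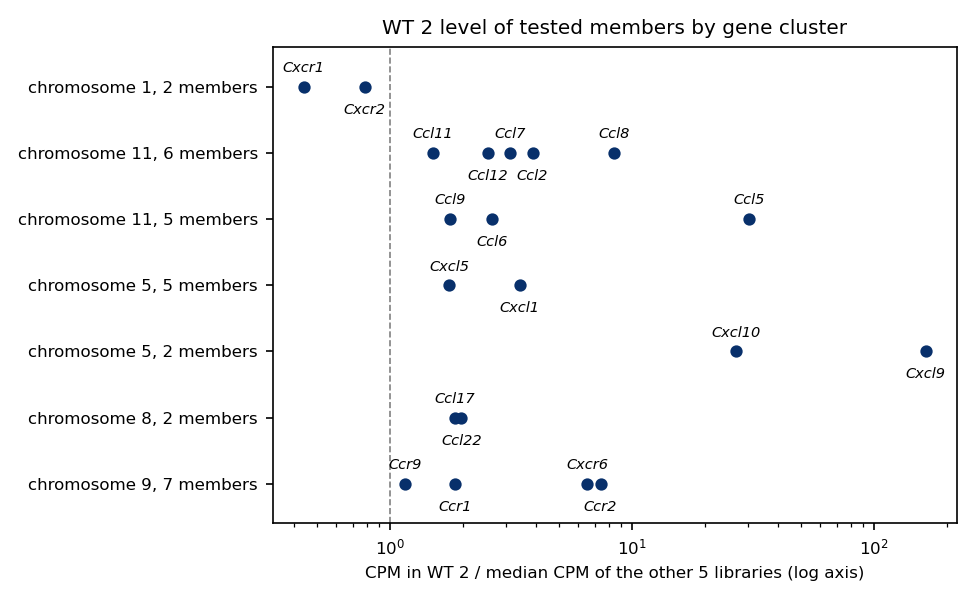
Ratio of the CPM in WT 2 to the median CPM of the other 5 libraries, on a log axis, for tested members of 7 gene clusters, with the number of members in each cluster given and the dashed line at equality. Cxcl9, Cxcl10 and Ccl5 lie above 25, whereas Cxcr1 and Cxcr2 lie below 1.

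Other chemokines and receptors whose symbols fall outside the rule were read from a list of 14 genes, of which 12 were tested and 0 passed an adjusted p of 0.05. Ackr1, a decoy receptor of venular endothelium and red cells, was at 1.68, 1.29 and 1.36 CPM in WT and 3.35, 2.99 and 3.72 CPM in Abca4KO. All Abca4KO libraries lay above all WT libraries, with a log2 fold change of 1.21, with SE 0.29 (adjusted p = 0.534 by edgeR's quasi-likelihood test), and 1.14 without WT 2. Ackr1 shares 361 exon bases with Cadm3 on the same strand, which was at 4.35 to 9.36 CPM in WT and 3.46 to 10.6 CPM in Abca4KO. All 13 endothelial markers had a positive log2 fold change, 7 of them at an unadjusted p under 0.05, beside 3.15% of all genes. Their summed level was 460.1 to 764 CPM in WT and 746 to 1110 CPM in Abca4KO. Their part in the Ackr1 difference was not tested.

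Pf4, a platelet and macrophage chemokine, and Ackr2, a decoy receptor of lymphatic endothelium, also lay higher in all Abca4KO libraries, with log2 fold changes of 0.94 (SE 0.40) and 0.93 (SE 0.48) and adjusted p of 0.706 and 0.759. Without WT 2 these were 0.78 for Pf4 and 1.06 for Ackr2. Xcr1, the receptor of cross-presenting dendritic cells, was at 10.7 CPM in WT 2 and between 0.628 and 3.10 CPM in the others. Cx3cl1, the membrane-bound ligand of microglial Cx3cr1, was at 29.1, 71.7 and 26.5 CPM in WT and 29.5, 38.9 and 38.6 CPM in Abca4KO. Cx3cr1 was at 16.7, 33.3 and 8.93 CPM in WT and 15.3, 18.7 and 18.02 CPM in Abca4KO. Both were highest in WT 2, and neither separated the genotypes (adjusted p of 0.926 and 0.958). Their log2 fold changes were -0.25 and -0.18, and 0.36 and 0.44 without WT 2.

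The signalling chain behind the receptors showed no called difference. Of 40 tested genes for G proteins, kinases and arrestins, 0 were called and 0 were at an unadjusted p under 0.05, and 32 were highest in WT 2. The median log2 fold change was -0.06, and 0.24 without WT 2. Of 32 tested genes of NF-kB signalling, 0 were called and 24 were highest in WT 2. At an unadjusted p under 0.05 there were 2, Traf6 and Tlr3, both lower, beside 3.87% of all genes. Tlr3, a sensor of double-stranded RNA, was at 40.6, 68.8 and 47.0 CPM in WT and 40.3, 36.7 and 38.4 CPM in Abca4KO, each Abca4KO value below the lowest WT value (log2 fold change -0.44, adjusted p = 0.706, and -0.19 without WT 2). Of 22 tested genes for glycosaminoglycan synthesis and chemokine cleavage, 0 were called. At an unadjusted p under 0.05, Mmp14, a membrane protease, was higher, beside 3.15% of all genes. Hs6st1, a heparan sulfate sulfotransferase, was lower at that level, beside 3.87%. WT 2 was the highest for 7 of those 22.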

How the data were processed

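RNA of RPE from 3 WT and 3 Abca4KO mice was sequenced, 1 library per mouse. The authors deposited 1 table of raw counts (whole, unnormalized) with each gene's exon length. Per the submitters' processing notes, STAR, HTSeq and mm10 were used. Versions, annotation release and the use of strand in counting are not given in the sources used here. Rows naming no gene numbered 0.

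Counts were filtered with filterByExpr (minimum count 10) and compared by edgeR 4.0.16's 2-sided quasi-likelihood test on TMM-scaled libraries (R 4.3.3), with Benjamini-Hochberg adjustment over all 17340 tested genes and a threshold of 0.05. The code was tested on simulated data. CPM values use the TMM-scaled library sizes. Samples were grouped by the genotype in the labels. Overlaps with other genes were read from GENCODE M21 and similar transcripts from BLAST 2.17.0. Coordinates are in mm10 as deposited, and 52 of 59 members had the same coordinates in that annotation. Alternatives were other size factors, filters, DESeq2 1.42.0, limma-voom (limma 3.58.1) with sample weights, a robust fit, the replicate number as a block, and leaving out libraries. Any member may be named, and of each other list up to 4 genes with the smallest unadjusted p and the defining markers of a cell type. Members and lists were chosen with earlier results of these data known, and counts are described without a set test. Ifng was named after its values were seen. Some genes, 1 of the members among them, are counted but not reported singly here.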

Additional observations from a re-analysis of the deposited data

How the results depend on the processing

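No member passed an adjusted p of 0.05 under any of the 15 settings tried. DESeq2 gave no adjusted p for some members, Cxcl9, Cxcl10 and Ccl5 among them. The count of all genes that passed was 8, and 19 with no filter on low counts, 114 with DESeq2, 31 with limma-voom and 3 to 11 with 1 library left out. Members at an unadjusted p under 0.05 numbered 1 of 33 (7.02% of all genes). There were 7 of 50 with no filter (5.38%), 2 of them higher in Abca4KO and 5 lower. With limma-voom there were 6 of 33 (16.9%), and 4 of 31 without WT 2 and Abca4KO 2 (8.24%), all of them higher. With 1 library left out there were 1 to 7, the 7 of 33 being those without WT 2 (10.7%), all higher. Members without overlap of the genotypes numbered 4, beside 5.93% of all genes with Abca4KO above and 6.85% with it below. Without WT 2 they numbered 11, beside 14.0% in each direction, so the share of all genes rose as well. They numbered 2 among the 23 with at least 10 counts in every library, 11 without WT 2 and Abca4KO 2, and 5 to 11 with 1 library left out. Except without WT 2, the share of all genes was not counted there, so no rise is read from these. The members' median log2 fold change of -0.19 became 0.15 with limma-voom, 0.16 without WT 2 and Abca4KO 2, and lay between -0.53 and 0.42 with 1 library left out.

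No single member was called, so signs are those of uncalled values. With limma-voom, which down-weights libraries that vary more, the sign of the log2 fold change turned for Ccl25 (-0.03), Cxcl9 (0.32), Ccl5 (0.52), Ccr7 (0.15) and Cxcr3 (1.23). Without WT 2 and Abca4KO 2 it turned for Ccr2 (0.41), Cxcl9 (0.54), Ccl5 (0.85), Cxcl10 (0.50), Ccr1 (0.012), Ccr7 (0.34), Cxcl13 (-0.16), Cxcr3 (1.34), Cxcl5 (0.076) and Cxcr5 (0.16). With 1 library left out, values spanned -0.68 to 0.25 for Ccl6, -2.005 to 0.52 for Ccr2, -5.98 to 2.02 for Cxcl9, -3.17 to 0.98 for Ccl5, -3.15 to 1.01 for Cxcl10, -0.50 to 0.28 for Ccr1, -0.60 to 0.65 for Ccr7 and -0.87 to 1.71 for Cxcr3. They spanned -1.16 to 0.22 for Cxcl1, -0.87 to 0.031 for Cxcr5, -1.17 to 3.29 for Ccl8, -0.21 to 3.12 for Cxcr6, -0.29 to 1.27 for Ccl22, -0.13 to 0.20 for Cxcl12, -0.094 to 0.88 for Cxcr2, -0.013 to 0.38 for Cxcl14 and -0.11 to 0.83 for Cxcl13. Leaving out WT 2 turned 10 of the 32 signs, Abca4KO 2 turned 6, WT 3 turned 4, WT 1 turned 3, Abca4KO 3 turned 2 and Abca4KO 1 turned 0. The cause was not tested.

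The labels number the mice 1 to 3 in each genotype without saying that a number links them. Deviations from the genotype mean correlated across genes at 0.17, 0.34 and -0.08 for the same numbers. WT 1 correlated best with Abca4KO 1, WT 2 with Abca4KO 2 and WT 3 with Abca4KO 1 (0.31). The best match thus had the same number for WT 1 and WT 2 but not for WT 3. The 3 deviations within a genotype sum to 0 and depend on each other, so whether the numbers pair the samples was not settled. With the replicate block 9 genes and 0 members were called, 3 of 33 members were at an unadjusted p under 0.05 (6.89% of all genes), the median was 0.051, and the sign turned for Ccr7 (0.06) and Cxcr3 (0.32).

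At total counts of 17047286 to 19841307 per library, members under 1 CPM rest on under 20 counts each. With 3 mice per genotype, the 95% interval of the log2 fold change of Cxcl9 ran from -9.36 to 0.35, so a difference between genotypes in the CXCR3 ligands was neither shown nor bounded closely here.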
